A study of Rattus norvegicus with 27 samples.

Results

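AMPA receptor subunits and the TARPs, the transmembrane proteins that travel with them, were followed in tail motor neurons of rats after spinal cord transection. The members were all probe sets of the Affymetrix rat array that the platform annotation gives to exactly 1 of 10 genes, namely the pore subunit genes Gria1, Gria2, Gria3 and Gria4 and the TARP genes Cacng2, Cacng3, Cacng4, Cacng5, Cacng7 and Cacng8. The table held 10 such probe sets among 12913, and they covered 9 of the 10 genes, out of 9769 genes with such a probe set. Gria4 had 2 probe sets, and Gria1 had none with a single symbol, so it was not analysed here. The probe sets were 1368401_at for Gria2, 1368691_at for Gria3, 1396696_at and 1369384_at for Gria4, 1368759_at for Cacng2, 1370757_at for Cacng3, 1370755_at for Cacng4, 1388097_at for Cacng5, 1370771_at for Cacng7 and 1388079_at for Cacng8.

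AMPA receptors are the glutamate-gated cation channels that carry most fast excitation in the central nervous system, motor neurons included. Each channel is assembled from GluA subunits encoded by the Gria genes, and receptors that hold the RNA-edited form of GluA2, the Gria2 product, pass little calcium. TARPs bind the assembled channel. Stargazin, the Cacng2 product, is the TARP first identified. It brings the channel to the cell surface, ties it to the scaffold under the synapse and slows its closing. The products of Cacng2, Cacng3, Cacng4 and Cacng8 are known as type I TARPs and those of Cacng5 and Cacng7 as type II TARPs.

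The 4 groups combined an operation with a time, all in adult male Wistar rats with no genetic change stated. Spi-21 (8 arrays) and Spi-60 (8 arrays) were taken 21 and 60 days after the cord had been cut at sacral segment S2 with removal of 1 to 2 mm of tissue. ShamC-21 (6 arrays) and ShamC-60 (5 arrays) were taken at the same times after opening of the vertebrae with the dura left whole. Every rat also received the retrograde tracer Fluorogold 5 to 7 days before the tissue was taken, and every group had pain relief. Labelled neurons were cut by laser from sections of 10 µm and pooled, 100 to 200 per array in the sample labels and 50 to 200 in the design text, and their RNA was amplified in 2 rounds. The samples are numbered as biological replicates, but no label ties an array to an animal or a batch, so p-values measure the spread between these arrays. Because each array measured a pool of cells, fewer cells of a type and less RNA per cell cannot be told apart.

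The dissected material carried motor neuron transcripts, and 12 of 17 listed identity genes had a probe set (Chat, Mnx1, Chodl, Ache and Esrrb did not). Their mean log2 signal per array lay between 10.0 and 10.3 in Spi-21, 10.1 and 10.4 in ShamC-21, 10.2 and 10.4 in Spi-60, and 8.75 and 10.2 in ShamC-60. Of the 12 measured genes 2 were higher at 21 days (Chrna4 and Isl2) and 5 at 60 days (Slc18a3, Uchl1, Prph, Nefh and Chrna4), none lower. Of all probe sets 11.3% were higher and 11.2% lower at 21 days, and 10.2% and 8.92% at 60 days. The Isl2 call was lost in 10 of 27 fits that left out 1 array. Without ShamC-60 replicate 4 alone Hspb8 (−0.77), Nefl (−0.32) and Calca (−0.86) passed as lower at 21 days, and Calca also at 60 days. Without ShamC-60 replicates 1 and 4 the 60-day calls of Prph, Nefh and Chrna4 were lost and those of Slc18a3 and Uchl1 were not. Slc18a3, the vesicular acetylcholine transporter, averaged 7.56 in Spi-21 and 7.24 in ShamC-21 (limma, adjusted p = 0.388), and 8.24 in Spi-60 and 6.76 in ShamC-60 (adjusted p = 0.000434). The part of this shift in the results was not tested. The low marker mean belonged to ShamC-60 replicate 4, which also had the highest interneuron marker mean of all arrays (6.85). ShamC-60 replicate 1 had the highest oligodendrocyte (8.75) and blood cell (8.02) marker means of all arrays. Calls of the members and named partner genes at 60 days that were lost without these 2 arrays are given with their values beside them. The 3' minus 5' difference of the beta-actin control, a measure of RNA quality that a higher 3' signal also raises, lay between 2.86 and 3.60 in Spi-21 and between 1.97 and 2.65 in ShamC-21. It lay between 2.75 and 3.77 in Spi-60 and between 1.92 and 2.42 in ShamC-60, so it separated the operations completely and cannot be told apart from them. The same difference of the GAPDH control overlapped between operations at both times. Its mean was 2.13 in Spi-21 and 2.97 in ShamC-21, the other direction, and 3.38 in Spi-60 and 2.57 in ShamC-60.

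At 21 days after transection the Cacng2 signal was higher and that of one Gria4 probe set was lower than after the sham operation. At 60 days both differences were present again, Gria2 was also lower and Cacng7 was slightly higher. The 60-day calls of Gria2, Cacng7 and Gria4 were lost in 7, 6 and 3 of 27 fits that left out 1 array. Without ShamC-60 replicate 4 Gria2 passed at 21 days and not at 60 days. In the limma fit across all probe sets, 2 of the 10 members passed an adjusted p of 0.05 at 21 days, 1 higher and 1 lower. Of all probe sets 22.6% passed at that time, 11.3% higher and 11.2% lower. At 60 days 4 of 10 passed, 2 higher and 2 lower, against 19.1% of all probe sets, 10.2% higher and 8.92% lower. The median difference over the 10 members was −0.04 log2 at 21 days and 0.01 at 60 days, against 0.01 and 0.02 over all probe sets. The median size of a difference, without its sign, was 0.154 and 0.145 log2 for the members, against 0.195 and 0.191 for all probe sets. No filter on signal was applied, so all 10 members were tested. Gria2, Gria3, Gria4 (1396696_at) and Cacng2 had mean signals above the median of all probe sets (6.35), and the other 6 lay below it, where a further fall may not show.

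**Figure D1:**
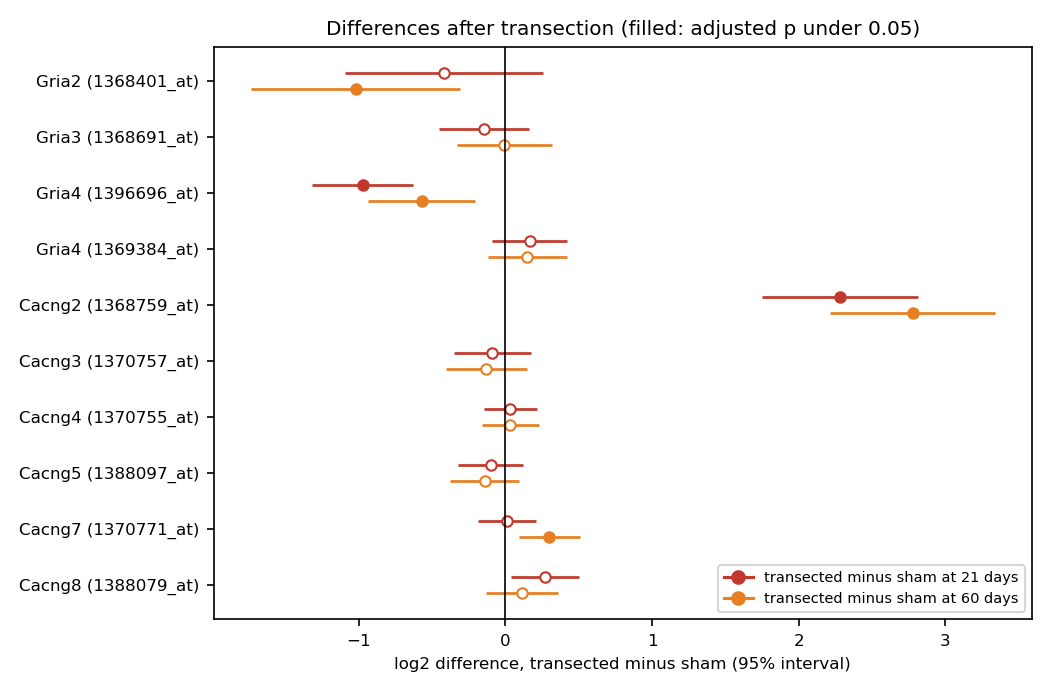
Log2 difference, transected minus sham, with its 95% interval on the horizontal axis for each of the 10 probe sets at 21 days (red) and 60 days (orange). Filled points passed an adjusted p of 0.05. Cacng2 stands at 2.28 and 2.78, and the other points lie between −1.02 and 0.30.

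The promoters of Cacng2 and Gria4 are shown because these genes carried the differences seen at both times. Each run is the 250 bases before the gene's start in RefSeq (build GRCr8), read 5′ to 3′ on the gene's strand, which is the minus strand for both. In the Cacng2 promoter (chr7:111577758-111578007) capitals mark matches to TATAAA on either strand, and in the Gria4 promoter (chr8:10319882-10320131) capitals mark matches to CAGCTG, which reads the same on both strands.
Cacng2: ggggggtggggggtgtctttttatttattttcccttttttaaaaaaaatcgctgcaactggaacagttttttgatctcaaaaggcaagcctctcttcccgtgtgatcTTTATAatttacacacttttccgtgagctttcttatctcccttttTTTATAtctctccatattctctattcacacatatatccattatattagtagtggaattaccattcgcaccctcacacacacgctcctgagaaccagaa
Gria4: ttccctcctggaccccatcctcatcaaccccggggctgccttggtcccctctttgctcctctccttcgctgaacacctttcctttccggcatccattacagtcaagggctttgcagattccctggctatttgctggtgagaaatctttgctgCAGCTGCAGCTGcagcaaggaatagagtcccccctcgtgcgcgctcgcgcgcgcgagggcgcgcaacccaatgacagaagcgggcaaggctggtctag

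Cacng2 held 2 matches to TATAAA, from −143 to −138 and from −98 to −93 relative to the start, and Gria4 held 2 adjoining matches to CAGCTG, from −98 to −93 and from −92 to −87. Of 33469 rat promoters in the same table, 12.9% (4328) held TATAAA and 11.97% (4007) held CAGCTG in windows of the same length. TGACGTCA, held by 1.59% of promoters, and GGGCGG, held by 30.5%, matched neither sequence on either strand. The Cacng2 window was 38.4% G and C, at the 10.5 percentile of all promoters, and the Gria4 window was 59.6%, at the 73.8 percentile, with a median over promoters of 51.2%. Of the other members Cacng3, Cacng5 and Cacng8 were also in the promoter table. In Cacng3 the motif GGGCGG matched once. In Cacng8 the motif CAGCTG matched once. The window of Cacng5 held none of the 4 motifs. These matches describe letters, and no binding was measured.

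Among the pore subunits, Gria4 differed at both times through its brighter probe set. GluA4, its product, is a subunit of fast-closing AMPA receptors. In Spi-21 the 1396696_at signal of Gria4 had a lowest value of 7.33, a median of 7.74 and a highest value of 8.71 log2, against 8.40, 8.86 and 9.12 in ShamC-21. Of the 8 transected arrays 7 lay below every sham array, and Spi-21 replicate 8 (8.71) lay among the sham values. The difference was −0.97 ± 0.169 (limma, adjusted p = 0.000296), 1.96-fold lower, with a two-sided exact permutation p of 0.00266. Each exact permutation p given here is for 1 probe set and is unadjusted. Leaving out each array in turn kept it between −1.10 and −0.90 and past the threshold.

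At 60 days Gria4 (1396696_at) had a lowest value of 7.52, a median of 8.12 and a highest value of 8.29 in Spi-60, while the 5 arrays of ShamC-60 had 8.76, 8.53, 8.76, 8.48 and 8.54. All 8 transected arrays lay below every sham array, a complete separation downward that 3.42% of all probe sets showed at this time. The difference was −0.57 ± 0.178 (limma, adjusted p = 0.0253), 1.48-fold lower, and the exact permutation p was 0.00155, the smallest this design allows. The adjusted p exceeded 0.05 in 3 of 27 fits that left out 1 array: without Spi-60 replicate 5, without ShamC-60 replicate 1 (−0.53, adjusted p = 0.0690) and without ShamC-60 replicate 3 (−0.53, adjusted p = 0.0572). With the mean of 27 glial markers as a covariate the difference was −0.47 (limma, adjusted p = 0.0604), and without both ShamC-60 replicates 1 and 4 it was −0.57 (limma, adjusted p = 0.119).

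The second Gria4 probe set, 1369384_at, did not show this. It lay between 5.20 and 6.32 with a median of 5.60 in Spi-21 and between 5.40 and 5.59 with a median of 5.48 in ShamC-21. In Spi-60 it lay between 5.16 and 5.67 with a median of 5.50, and the ShamC-60 arrays had 5.24, 5.44, 5.57, 5.29 and 5.14. The groups overlapped at both times, with differences of 0.16 ± 0.125 at 21 days (limma, adjusted p = 0.358) and 0.15 ± 0.132 at 60 days (adjusted p = 0.451). The 95% interval of this probe set, −0.09 to 0.42 at 21 days, did not reach that of 1396696_at, −1.32 to −0.63. Its 4 group means lay below the median of all probe sets, and the sources used here do not say which part of the Gria4 transcript each probe set matches. The Gria4 result thus rests on 1 of 2 probe sets.

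Gria2 encodes GluA2, the subunit that limits calcium entry. Its signal in Spi-21 had a lowest value of 7.58, a median of 7.88 and a highest value of 8.32, against 7.99, 8.25 and 8.79 in ShamC-21. Of the 8 transected arrays 5 lay below every sham array. The difference was −0.42 ± 0.330 and did not pass the threshold (limma, adjusted p = 0.374), although the exact permutation test of the 14 arrays alone gave p = 0.0226.

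At 60 days Gria2 had a lowest value of 7.58, a median of 7.88 and a highest value of 8.33 in Spi-60, while the ShamC-60 arrays had 8.87, 8.34, 8.13, 11.57 and 8.04. ShamC-60 replicate 4, the array with the low motor neuron marker mean, stood alone above the rest. The difference was −1.02 ± 0.349 (limma, adjusted p = 0.0390), 2.03-fold lower, with 8 of 8 transected arrays below the sham mean and 5 of 8 below every sham array (exact permutation p = 0.0264). Without ShamC-60 replicate 4 the Gria2 difference at 60 days was −0.38 ± 0.167 (limma, adjusted p = 0.144). Without replicates 1 and 4 of ShamC-60 it was −0.20 (adjusted p = 0.540), and with array weights, which count outlying arrays less, it was −0.39 (adjusted p = 0.204). In all, the call was lost in 7 of 27 fits that left out 1 array (Spi-60 replicate 1, 2, 5, 6 or 8, ShamC-60 replicate 1 or 4). So the size of the Gria2 difference at 60 days depended mostly on 1 sham array, ShamC-60 replicate 4, and its call depended on several arrays. That sham array also entered the standard error at 21 days through the shared spread. Without that array the 21-day Gria2 difference was still −0.42 but its standard error was 0.147, and it passed (limma, adjusted p = 0.0382).

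Gria3, which encodes GluA3, overlapped between operations at both times. It lay between 6.99 and 7.73 with a median of 7.41 in Spi-21 and between 7.01 and 7.81 with a median of 7.56 in ShamC-21. In Spi-60 it lay between 6.65 and 7.83 with a median of 7.38, and the ShamC-60 arrays had 7.38, 7.48, 7.39, 7.33 and 7.36. The differences were −0.14 (95% interval −0.45 to 0.16, limma, adjusted p = 0.515) at 21 days and −0.01 (95% interval −0.33 to 0.32, adjusted p = 0.983) at 60 days.

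Differences within an array show how the pore subunits moved against each other, although the level of one probe set cannot be set against another's. Gria3 minus Gria4 (1396696_at) had a lowest value of −1.28, a median of −0.38 and a highest value of 0.21 log2 in Spi-21, against −1.65, −1.29 and −0.81 in ShamC-21. In 6 of 8 arrays of Spi-21 this value exceeded that of every ShamC-21 array, and 7 of 8 did so at 60 days, where the means were −0.66 in Spi-60 and −1.23 in ShamC-60. Gria2 minus Gria4 averaged 0.05 in Spi-21 and −0.50 in ShamC-21, and 5 of 8 arrays of Spi-21 exceeded every array of ShamC-21. At 60 days 0 of 8 did, and ShamC-60 replicate 4 had a value of 3.10; the medians were −0.02 in Spi-60 and −0.19 in ShamC-60. Gria4 (1396696_at) thus lay lower relative to Gria3 after transection at both times, by medians of 0.91 and 0.48 log2. Gria2 minus Gria3 had medians of 0.74 in Spi-21 and 0.89 in ShamC-21, and of 0.56 in Spi-60 and 0.85 in ShamC-60. It lay below every sham array in 3 of 8 arrays of Spi-21 and 6 of 8 of Spi-60. The values with Gria4 use the same Gria4 probe set as above, and none of the within-array values were tested separately.

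**Figure D2:**
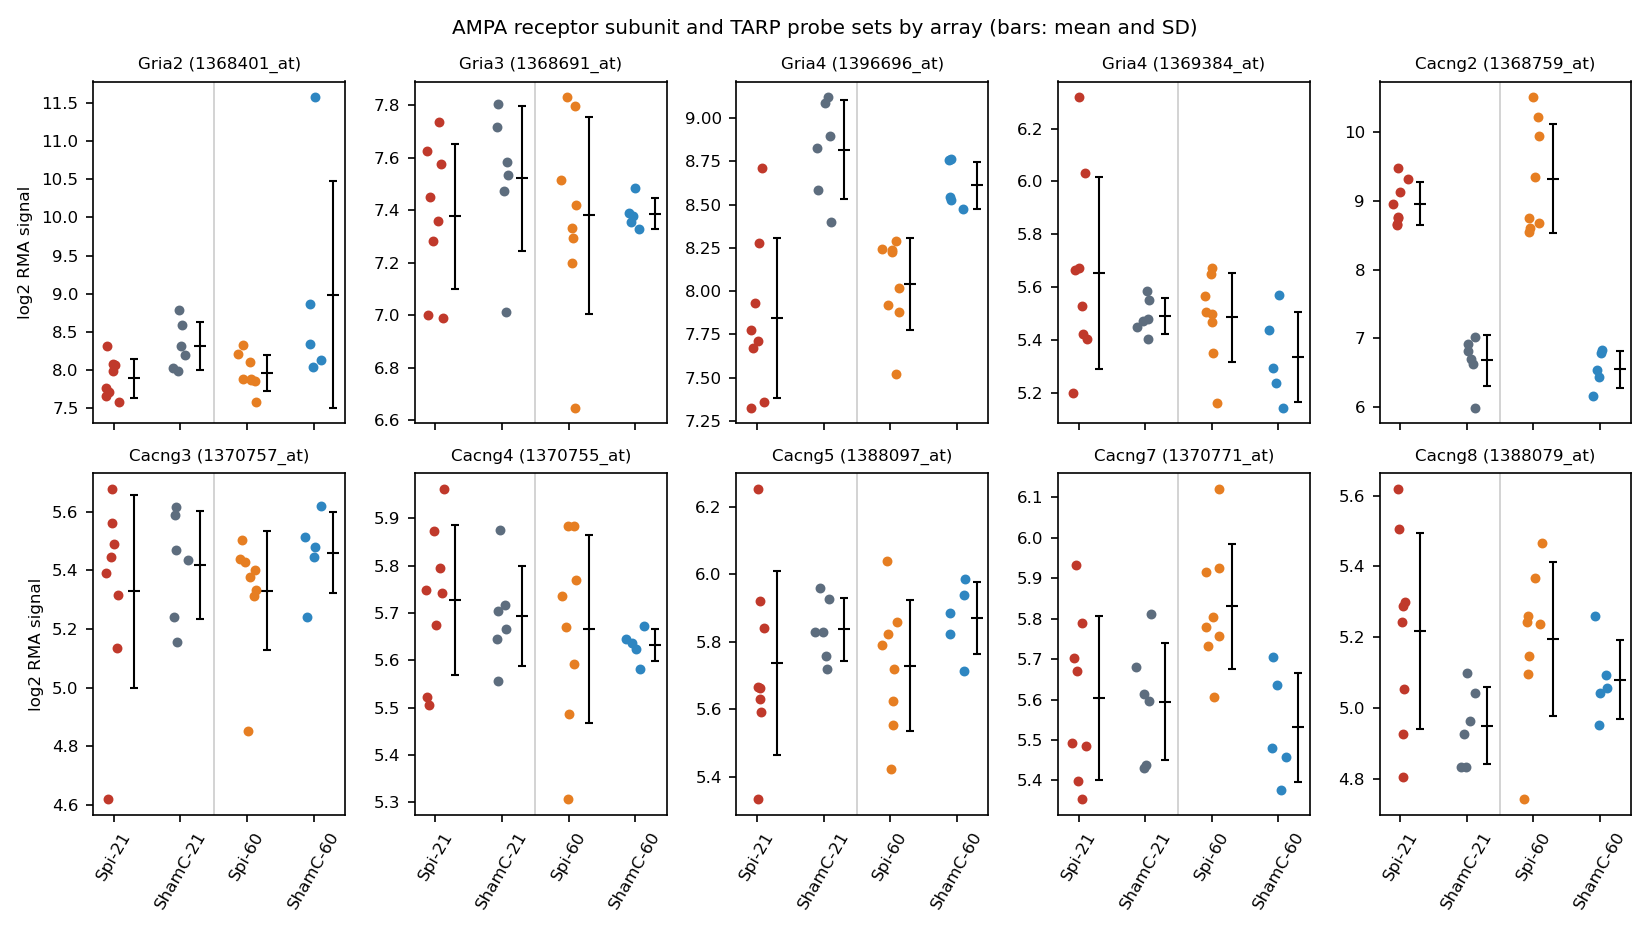
Log2 signal of each of the 10 probe sets (vertical axes, scaled per panel) in every array of Spi-21, ShamC-21, Spi-60 and ShamC-60, with the mean and SD of each group beside the points. Cacng2 separates the operations completely at both times, and the single high Gria2 point of ShamC-60 is replicate 4 at 11.57.

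Among the TARPs, Cacng2 gave the largest difference of all members. In Spi-21 its signal had a lowest value of 8.64, a median of 8.86 and a highest value of 9.48, against 5.99, 6.76 and 7.02 in ShamC-21. In Spi-60 it had a lowest value of 8.55, a median of 9.05 and a highest value of 10.51, and the ShamC-60 arrays had 6.54, 6.83, 6.78, 6.16 and 6.44. At each time all 8 transected values exceeded every sham value, an upward separation shown by 3.07% of all probe sets at 21 days and 4.78% at 60 days.

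The Cacng2 difference was 2.28 ± 0.259 at 21 days (limma, adjusted p = 1.53e-06) and 2.78 ± 0.273 at 60 days (adjusted p = 1.43e-07), or 4.86-fold and 6.85-fold. It was the second highest of 12913 differences at 21 days and ranked 1 at 60 days. The exact permutation p was 0.000666 at 21 days and 0.00155 at 60 days, the smallest each design allows. Cacng2 passed in every alternative fit run, with differences between 2.14 and 2.40 at 21 days and between 2.46 and 2.90 at 60 days. Spread within Spi-60 was wide (SD 0.798), with 3 arrays at 9.94, 10.22 and 10.51 and the lowest 4 between 8.55 and 8.75, whereas Spi-21 had an SD of 0.314.

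Some markers of other cell types differed between the operations, and the difference of a control was split within Spi-21. Whether they moved with Cacng2 from array to array was not tested. The marker counts stand beside 11.3% of all probe sets higher and 11.2% lower at 21 days, and 10.2% and 8.92% at 60 days. Of the astrocyte markers 3 of 7 measured were higher at 21 days and 1 of 7 at 60 days, none lower. Gfap, the astrocyte filament gene, rose by 1.07 at 21 days (limma, adjusted p = 0.0234), a call lost without ShamC-21 replicate 1 or 2, and differed by 0.65 at 60 days (adjusted p = 0.196), while Aldoc, an astrocyte glycolytic enzyme gene, rose by 0.92 and 1.38. The astrocyte marker mean per array lay between 8.69 and 9.54 in Spi-21, 8.17 and 9.26 in ShamC-21, 8.99 and 9.93 in Spi-60, and 8.68 and 9.83 in ShamC-60. Of the oligodendrocyte markers 2 of 9 were higher at 21 days and 1 of 9 at 60 days, and of the microglia markers 3 of 11 and 1 of 11, none lower. Mbp, a myelin gene, had 1.08 (limma, adjusted p = 0.0453, lost in 13 of 27 fits that left out 1 array) and 1.04 (adjusted p = 0.0745), the second of which passed without ShamC-60 replicates 1 and 4. Its 2 other probe sets had 0.47 (adjusted p = 0.0143) and 0.34 (adjusted p = 0.0909) at 21 days and 0.36 and 0.14 at 60 days, where neither passed. The microglia markers that passed at 21 days were C1qb (0.61, limma, adjusted p = 0.00960), Trem2 (0.34, adjusted p = 0.0184) and Itgam (0.32, adjusted p = 0.0239). At 60 days it was C1qb (0.48, limma, adjusted p = 0.0497), a call lost in 20 of 27 fits that left out 1 array. Aif1, a microglia gene that passed at neither time, had −0.89 (limma, adjusted p = 0.106) and −0.61 (adjusted p = 0.321). Of 10 interneuron markers 1 was higher (Slc17a7, 0.32) and 1 lower at 21 days, namely Slc17a6, a vesicular glutamate transporter gene, with −0.90 (limma, adjusted p = 0.0395, lost in 7 of 27 fits that left out 1 array), and 0 passed at 60 days. Gad1, which encodes a GABA-synthesising enzyme, had −1.62 at 21 days and did not pass (adjusted p = 0.0636). Of 3 blood cell markers 1 was higher at 21 days (Slc4a1, 0.23, with 0.33 in its other probe set), and 1 lower at 60 days, the globin gene Hbb, with −1.38 (limma, adjusted p = 0.00494), which was lost without ShamC-60 replicates 1 and 4 (−0.71, adjusted p = 0.130). The part of these interneuron and blood cell shifts in the lower Gria2 and Gria4 signals was not tested. With the mean of the astrocyte, oligodendrocyte and microglia lists (27 genes) as a covariate the Cacng2 difference was 2.25 at 21 days and 2.74 at 60 days, and it passed at both (limma, adjusted p = 6.16e-06 and 5.45e-07). Within Spi-21 the GAPDH 3' minus 5' difference was split, with 2.57 to 3.47 for replicates 1 to 4 but 0.985 to 1.46 for the other 4, and no label gives a batch. Against ShamC-21, Cacng2 differed by 2.40 in replicates 1 to 4 and by 2.17 in replicates 5 to 8, and Gria4 (1396696_at) by −1.15 and −0.80.

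Cacng7 encodes gamma-7, a type II TARP. It lay between 5.35 and 5.93 with a median of 5.58 in Spi-21 and between 5.43 and 5.81 with a median of 5.60 in ShamC-21, and the difference was 0.01 ± 0.096 (limma, adjusted p = 0.959). In Spi-60 it had a lowest value of 5.61, a median of 5.79 and a highest value of 6.12, and the ShamC-60 arrays had 5.48, 5.38, 5.46, 5.71 and 5.63. At 60 days 7 of 8 transected values exceeded every sham value, with a difference of 0.30 ± 0.102 (limma, adjusted p = 0.0380), 1.23-fold (exact permutation p = 0.00622). The Cacng7 call was lost in 6 of 27 fits that left out 1 array (Spi-60 replicate 2, 3 or 7, ShamC-60 replicate 1, 2 or 3), with an adjusted p of up to 0.0982. It was also lost with the glial marker covariate (0.29, adjusted p = 0.0573), after the values were quantile-normalized again (0.27, adjusted p = 0.0611) and without ShamC-60 replicates 1 and 4 (0.34, adjusted p = 0.0989). The difference between the times was 0.29 ± 0.140 and did not pass (limma, unadjusted p = 0.0473, adjusted p = 0.703), so Cacng7 was not shown to differ between 21 and 60 days.

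Cacng8, whose product gamma-8 is a type I TARP best known from the hippocampus, lay between 4.81 and 5.62 with a median of 5.27 in Spi-21 and between 4.83 and 5.10 with a median of 4.95 in ShamC-21. Its difference of 0.27 ± 0.113 did not pass (limma, unadjusted p = 0.0252, adjusted p = 0.0859), although it did without Spi-21 replicate 7 (limma, adjusted p = 0.0296). The unadjusted exact permutation p was 0.0453. At 60 days Cacng8 lay between 4.74 and 5.47 with a median of 5.24 in Spi-60, the ShamC-60 arrays had 5.04, 5.09, 5.26, 5.06 and 4.95, and the difference was 0.11 (adjusted p = 0.530).

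Cacng3, Cacng4 and Cacng5 overlapped between operations at both times, and all their arrays lay at low signals. Cacng3, a type I TARP gene known from cortex, ranged from 4.62 to 5.68 in Spi-21 and from 5.16 to 5.62 in ShamC-21, and from 4.85 to 5.50 in Spi-60, with 5.24, 5.45, 5.62, 5.51 and 5.48 in ShamC-60. Its differences were −0.09 (limma, adjusted p = 0.646) and −0.13 (adjusted p = 0.526), with a 95% interval that ran from −0.35 to 0.17 at 21 days and from −0.40 to 0.15 at 60 days. Cacng4, the other type I member, ranged from 5.51 to 5.96 in Spi-21 and from 5.56 to 5.88 in ShamC-21, and from 5.31 to 5.88 in Spi-60, with 5.62, 5.67, 5.64, 5.64 and 5.58 in ShamC-60. It differed by 0.03 at each time (limma, adjusted p = 0.818 and 0.832), with 95% intervals of −0.15 to 0.22 and −0.16 to 0.23. Cacng5, a type II TARP gene, ranged from 5.33 to 6.25 in Spi-21 and from 5.72 to 5.96 in ShamC-21, and from 5.42 to 6.04 in Spi-60, with 5.71, 5.94, 5.99, 5.89 and 5.82 in ShamC-60. Its differences were −0.10 (limma, adjusted p = 0.534, 95% interval −0.32 to 0.12) and −0.14 (adjusted p = 0.402, 95% interval −0.37 to 0.09).

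**Figure D3:**
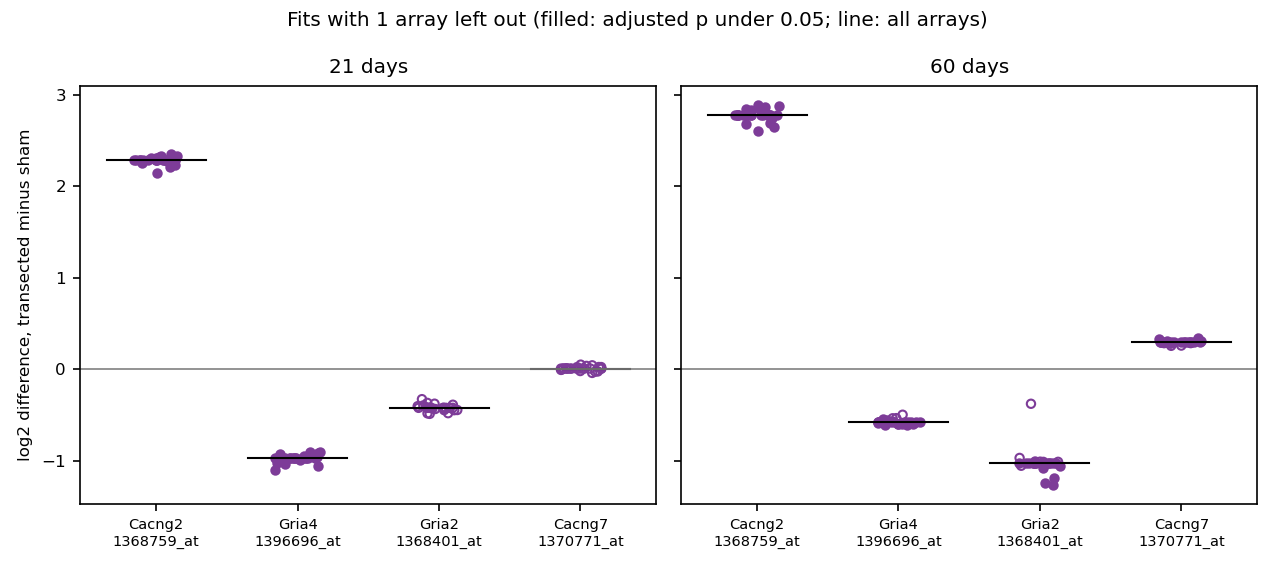
Log2 difference, transected minus sham (vertical axis), of 4 probe sets at 21 days (left) and 60 days (right) in 27 fits that each leave out 1 array, beside the value with all arrays (line). Filled points passed an adjusted p of 0.05. All Cacng2 points are filled, 7 of 27 Gria2 points at 60 days are open, and the one that stands apart at −0.38 is the fit without ShamC-60 replicate 4.

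Whether the effect of transection differed between the times was tested by the difference of both differences, 60 days minus 21 days. In the limma fit 0 of 10 members passed, where 0% of all probe sets passed, and 1 (Cacng7) had an unadjusted p under 0.05. The difference for Cacng2 was 0.49 (95% interval −0.28 to 1.27, adjusted p = 0.825) and that for Gria4 (1396696_at) was 0.40 (−0.10 to 0.91, adjusted p = 0.774). For Gria2 it was −0.60 (−1.59 to 0.38, adjusted p = 0.837). Both comparisons of time within an operation also gave 0 of 10 members. In transected neurons 0.0852% of all probe sets passed between 60 and 21 days, and Cacng2 differed by 0.36 ± 0.240 (limma, adjusted p = 0.549), with 3 of 8 arrays of Spi-60 above every array of Spi-21. Cacng7 had the smallest p of the members there, with 0.23 ± 0.089 (limma, unadjusted p = 0.0167, adjusted p = 0.258). In sham neurons 0% of all probe sets and 0 members passed in the limma fit, and 513 probe sets, 0 of them members, had an unadjusted p under 0.05.

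Genes whose proteins work with AMPA receptors were described by lists, each gene by its probe set of highest mean. Their counts stand beside the 22.6% of all probe sets that passed at 21 days and the 19.1% at 60 days, about evenly split between higher and lower. The enzymes of RNA editing bear on Gria2 directly, since the enzyme encoded by Adarb1, known as ADAR2, edits its transcript. Of 3 measured editing genes 2 were higher at 21 days and 1 at 60 days, none lower. Adarb1 averaged 7.69 in Spi-21 and 7.04 in ShamC-21, a difference of 0.65 ± 0.118 (limma, adjusted p = 0.000475), and 7.57 in Spi-60 and 6.95 in ShamC-60, a difference of 0.61 ± 0.124 (adjusted p = 0.00116). Without ShamC-60 replicates 1 and 4 the Adarb1 call at 60 days was lost (0.40, adjusted p = 0.0673). Adar rose by 0.32 ± 0.093 at 21 days (adjusted p = 0.0149). Editing itself cannot be read from array signals.

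Of 25 measured scaffold and trafficking genes 6 were higher and 1 lower at 21 days, and 5 higher and 0 lower at 60 days. Counting both directions these were 7 and 5 of 25, near the shares of all probe sets. The list's median difference was 0.06 and 0.04. Pick1, whose product binds the tail of GluA2, rose by 0.64 ± 0.115 at 21 days (limma, adjusted p = 0.000475) and by 0.60 ± 0.122 at 60 days (adjusted p = 0.00125). Napa, which encodes the alpha-SNAP partner of the fusion ATPase NSF, rose by 0.47 and 0.60, and Nsf itself by 0.25 and 0.33. The 21-day Nsf call was lost in 18 of 27 fits that left out 1 array. Without ShamC-60 replicates 1 and 4 neither passed at 60 days (Napa 0.53, adjusted p = 0.0613, and Nsf 0.30, adjusted p = 0.127). Myo5a, a motor that carries cargo into spines, rose by 0.69 and 0.62. Homer3, a scaffold protein gene, rose by 0.43 at 21 days. Dlg2, which encodes the synaptic scaffold PSD-93 to which TARPs bind, fell by 0.78 on the log2 scale at 21 days (adjusted p = 0.00437), and its 60-day difference of −0.37 did not pass (adjusted p = 0.183).

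Of 11 measured genes for other auxiliary and assembly proteins of AMPA receptors, 1 was higher and 1 lower at 21 days, and 1 higher and 2 lower at 60 days, with median differences of 0.07 and 0.12. Olfm3, which encodes a secreted noelin found in AMPA receptor complexes, fell by 1.15 ± 0.188 log2 at 21 days (limma, adjusted p = 0.000157) and by 0.87 ± 0.198 at 60 days (adjusted p = 0.00330). Abhd12, a lipid hydrolase gene, rose by 0.34 at 21 days, a call lost in 7 of 27 fits that left out 1 array, and by 0.56 at 60 days, lost without ShamC-60 replicates 1 and 4 (0.45, adjusted p = 0.0599). Abhd6, whose product holds AMPA receptors back from the surface, fell by 0.55 on the log2 scale at 60 days (adjusted p = 0.0213), and the call was lost without ShamC-60 replicate 1 and without replicates 1 and 4 (−0.56, adjusted p = 0.101).

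Kinases and phosphatases that act on AMPA receptors and TARPs moved in both directions, 3 of 14 measured higher and 3 lower at each time. The share over all probe sets was 22.6% at 21 days and 19.1% at 60 days. Prkaca, the catalytic subunit of protein kinase A, rose by 0.66 and 1.12 (limma, adjusted p = 0.000741 and 2.29e-06). Camk2g, a calcium/calmodulin kinase II gene, rose by 0.64 and 0.95, the first of these lost without Spi-21 replicate 2. Prkcb, a protein kinase C gene, fell by 1.37 ± 0.264 and by 1.55 ± 0.278 on the log2 scale (adjusted p = 0.000797 and 0.000379), while its other probe set had −0.42 (adjusted p = 0.0291) and −0.40 (adjusted p = 0.0504). The protein phosphatase 1 genes split: Ppp1cb fell by 0.75 and 1.00 and Ppp1cc by 0.62 and 0.58, whereas Ppp1ca rose by 0.38 at 60 days. Without ShamC-60 replicates 1 and 4 the 60-day calls of Ppp1cb (−0.50, adjusted p = 0.159) and Ppp1cc (−0.45, adjusted p = 0.125) were lost. Ppp3r1, the regulatory subunit of calcineurin, rose by 0.43 at 21 days, a call lost without ShamC-21 replicate 5.

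Only 6 of 15 listed pentraxins and synaptic organisers were measured, of which 2 were higher and 2 lower at 21 days and 2 higher and 0 lower at 60 days. Nrxn2, a presynaptic neurexin gene, rose by 0.61 and 0.78, but its other probe set had −0.00 and 0.21 and passed at neither time. Cbln1, which encodes a secreted synapse organiser, rose by 0.95 ± 0.222 at 60 days (limma, adjusted p = 0.00382), and its other probe set had 1.16 (adjusted p = 0.0158). Cbln2, of the same family, fell by 0.74 at 21 days (adjusted p = 0.0163), and its other probe set had −0.50 (adjusted p = 0.00433). Nptx1 (−0.87) and Nlgn3 (0.32) passed at 21 days by a small margin, and their calls were lost in 11 and 17 of 27 fits that left out 1 array. The other probe set of Nlgn3 had 0.04 and 0.05 and passed at neither time.

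The gamma subunit genes Cacng1 and Cacng6, relatives of the TARP genes whose products do not serve AMPA receptors, passed at neither time. Cacng1 differed by 0.21 (limma, adjusted p = 0.309) and 0.35 (adjusted p = 0.110), and Cacng6 by 0.11 (adjusted p = 0.451) and 0.03 (adjusted p = 0.860). Among the other ionotropic glutamate receptor genes 3 of 11 measured were higher at 21 days and 4 of 11 at 60 days, none lower. Grin3b, an NMDA receptor subunit gene, differed most, by 1.13 and 1.25 (adjusted p = 2.90e-05 and 1.54e-05). The kainate receptor subunit genes Grik5 (0.47 and 0.76) and Grik4 (0.42 and 0.37) passed at both times, the 60-day call of Grik4 being lost in 7 of 27 fits that left out 1 array and without ShamC-60 replicates 1 and 4 (0.34, adjusted p = 0.189), and Grin1, the obligatory NMDA receptor subunit gene, passed at 60 days (0.69).

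**Figure D4:**
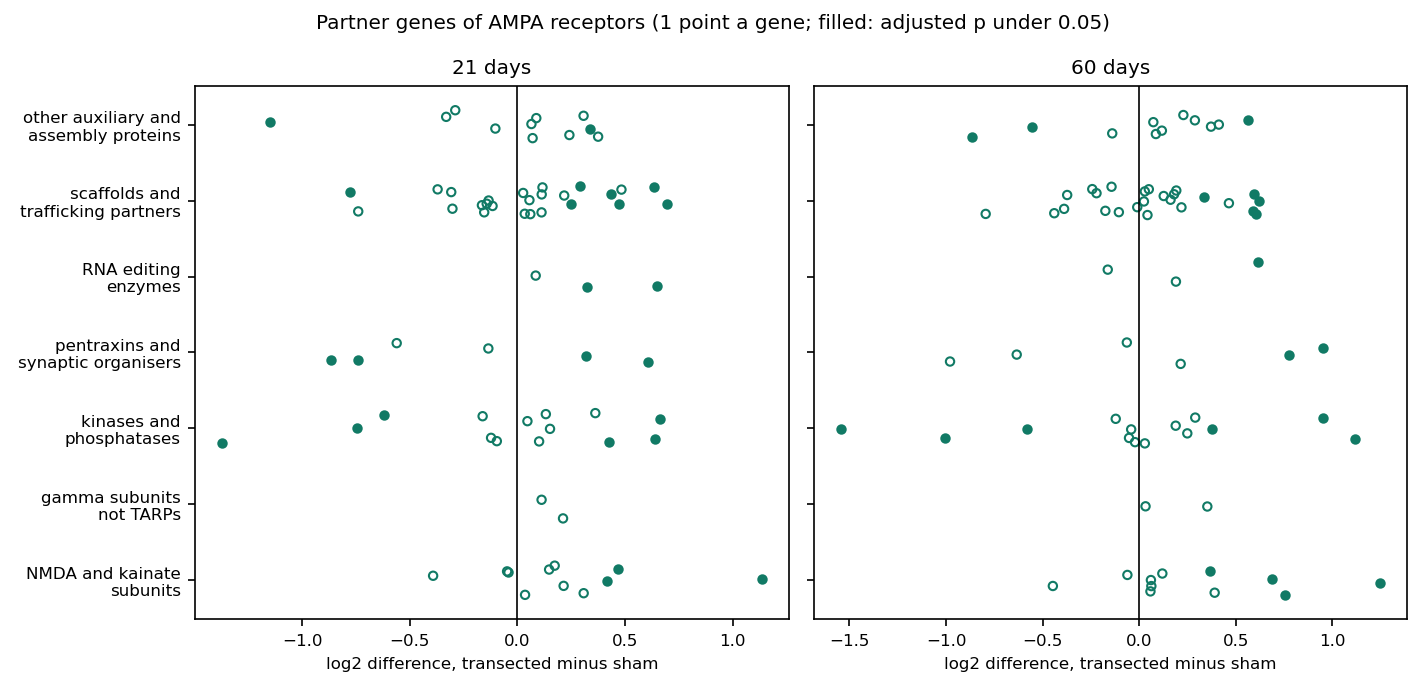
Log2 difference, transected minus sham (horizontal axes, scaled per panel), of each measured gene of 7 lists of AMPA receptor partners and relatives at 21 days (left) and 60 days (right). Filled points passed an adjusted p of 0.05. Filled points lie on both sides of 0 among kinases and phosphatases and, apart from Dlg2 at 21 days, on the higher side among scaffolds.

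The genes most like each leading member over the 27 arrays were found by Pearson correlation, given as a description because all arrays share the same normalization and groups. For Cacng2 signals the 3 highest were those of Sympk (r = 0.956), Trmt1 (r = 0.956) and Zfp771 (r = 0.947), which includes the step between operations. After each group's mean was taken off, B4galnt1 (r = 0.857), Rrp7a (r = 0.824) and Abhd17a (r = 0.818) were the most like Cacng2. The spread of Cacng2 was widest in Spi-60 (SD 0.798, against 0.271 to 0.368 in the other groups), so that group can weigh most in these values. For Gria4 (1396696_at), Wwp1 was first by either measure (r = 0.900 for signals and 0.791 within groups), followed by Chordc1 (r = 0.888) and Yme1l1 (r = 0.884) for signals and by Rassf6 (r = 0.781) and Cisd2 (r = 0.776) within groups. For Gria2, Cnr1, the cannabinoid receptor CB1, was first by either measure (r = 0.964 and 0.949), and without ShamC-60 replicate 4 these values were 0.836 and 0.857. Next to it for Gria2 stood Tmem178a (r = 0.944) and Mal2 (r = 0.934) for signals and Tnks2 (r = 0.947) and Tmem178a (r = 0.926) within groups, which were 0.778, 0.685, 0.830 and 0.813 without that array. The within-group values 0.857, 0.830 and 0.813 were taken with group means that still included that array, so they are not free of it.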

How the data were processed

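The authors' deposited values are log2 signals per probe set, made by RMA per the submitters' processing notes; its version is not given in the sources used here. RMA makes the arrays' distributions alike and can shrink differences at low signal; array medians lay between 6.31 and 6.41. Arrays have no count depth, and their number limits precision.

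Gene names came from the platform annotation (of 12913 probe sets tested, 11880 had 1 symbol). All 27 arrays in 4 groups entered 1 fit without the 6 control probe sets (R 4.3.3, limma 3.58.1, lmFit and eBayes), with two-sided tests, Benjamini-Hochberg adjustment over all probe sets and 0.05 as threshold. Errors after a difference are standard errors. The fit was tested on simulated data. Exact permutation tests used Python 3.11.15 and scipy 1.17.1.

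The members and lists were chosen with earlier results of these data known. Every member was named, up to 4 genes per direction and time with the smallest p of each pathway list, Adarb1, Slc18a3, Gfap, Mbp and Aif1 in any case, marker genes as examples, and the 3 most like genes per measure. Of 11 same-numbered transected and sham pairs of one time, 4 had deviations correlated over 0.1 (range −0.31 to 0.33). These few correlations cannot decide whether the numbers pair arrays. The labels do not say that they do, so the main fit did not pair them. Alternatives were another normalization, centring, array weights, trend and robust moderation, a signal filter, a replicate block, a glial covariate, only the groups compared, parts of Spi-21 and ShamC-60, and leaving out each array.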

Additional observations from a re-analysis of the deposited data

Results flagged for a closer look

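Of 40 groups of values, 10 probe sets in 4 groups, 2 held an array far from the rest of its group by Dixon's criterion, and chance gives about 1 in 20 groups. Gria2 in ShamC-60 had its highest array, replicate 4, at 11.57, and the nearest other array was at 8.87. The same array had the lowest mean of motor neuron identity markers (8.75), and its part in the Gria2 value was not tested. Cacng3 in Spi-60 had its lowest array, replicate 2, at 4.85, and the nearest other array was at 5.31.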

How the results depend on the processing

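The number of members past the threshold at 60 days, 4 with all arrays, was 2 after the values were quantile-normalized again, 2 with the glial marker mean as a covariate and 1 without ShamC-60 replicates 1 and 4. Leaving out each array in turn gave 1 to 4 members at 60 days, 2 to 3 at 21 days and 0 in the 3 other comparisons. The lowest count came without ShamC-60 replicate 1, and Spi-60 replicates 2 and 5 and ShamC-60 replicate 3 each left 2. No member's called difference changed sign in any alternative run. With the replicate number as a block, which the labels do not give as a pairing, the called members were unchanged: Cacng2 had 2.33 and 2.90, Gria4 (1396696_at) −1.01 and −0.62, Gria2 −1.08 at 60 days and Cacng7 0.37 at 60 days. Over the whole table, 2917 probe sets passed at 21 days. When only probe sets above the median signal were tested 1811 passed, a count out of fewer probe sets that is not a share of the same total. With Spi-21 replicates 1 to 4 only 3903 passed at 21 days, and with replicates 5 to 8 only 1335. At 60 days 2463 passed, and 797 without ShamC-60 replicates 1 and 4. The difference between the times gave 0 with all arrays and 161 with Spi-21 replicates 5 to 8 only. Without ShamC-60 replicates 1 and 4 the 60-day lists held 3 higher scaffold genes, 0 editing genes, 0 higher and 1 lower auxiliary gene, and 1 lower kinase or phosphatase gene. Between 60 and 21 days in transected neurons 11 passed, 52 with Spi-21 replicates 1 to 4 only and 630 with replicates 5 to 8 only, and leaving out 1 array gave 1 to 83. Low signal limits what the 6 dim members can show.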

Other observations

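Several members lie beside each other or beside partner genes in RefSeq gene order (GRCr8, names and order only), and neighbours were chosen by position. Cacng6, Cacng8 and Cacng7 follow one another, as do Cacng1, Cacng4 and Cacng5, and of these 6 genes Cacng7 alone passed, at 60 days. Cacng3, which did not pass, lies beside Prkcb, a protein kinase C gene that was lower at both times (−1.37 and −1.55). Gria4 lies beside Msantd4, a gene lower by −0.98 at 21 days (limma, adjusted p = 0.000238) and −0.80 at 60 days (adjusted p = 0.00235), and beside Casp1, which passed at neither time (−0.19 and −0.36). Cacng2 lies between Eif3d (0.17 and −0.07) and Ift27 (0.27 and 0.39), and neither passed at either time.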
